A study of Mus musculus with 10 samples.

Results

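The immunoproteasome and peptide loading genes described here are 10: the catalytic subunits Psmb8, Psmb9 and Psmb10, the activator subunits Psme1 and Psme2, the transporter chains Tap1 and Tap2, the chaperones Tapbp and Tapbpl, and the trimming peptidase Erap1. They were taken by symbol from 54532 genes, and all 10 had counts in every library and passed the filter on low counts. Cells display fragments of their own proteins on class I molecules of the major histocompatibility complex, where T cells read them. The proteasome cuts the proteins, the TAP transporter moves the peptides into the endoplasmic reticulum, an aminopeptidase trims them, and chaperones fit them into the class I groove. Interferons induce an alternative set of catalytic subunits that replace the constitutive ones and form the immunoproteasome, together with an activator cap, the transporter and the loading chaperones. In the kidney the same genes are active in infiltrating leukocytes and in tubular and endothelial cells, most of all in inflamed tissue.

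Bulk RNA-seq came from kidney tissue of male C57BL/6 mice of WT genotype. They were operated at 8 weeks of age by double ligation of the left ureter (unilateral ureteral obstruction, UUO) and killed on day 14. The 5 controls were given PBS, and the other 5 mice dimethyl malonate (DMM), an inhibitor of succinate dehydrogenase, at 40 mg/kg into the peritoneum every other day. Both groups therefore carried the obstruction, and no kidney without it was compared. The comparison asks how far DMM altered the expression of these genes in the obstructed kidney. Total counts lay between 16457495 and 18078777 in the PBS libraries and between 15722527 and 19475833 in the DMM libraries. The smallest count of a member in any library was 107, for Psmb9 in DMM kidney 4. Levels are given in CPM, counts scaled to a common library size with the trimmed mean of M values (TMM).

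The libraries did not form 2 even groups. The group means that the authors deposited can be rebuilt from their counts with a weight for each library, and in that sum PBS kidney 3 and DMM kidney 1 had a weight of 0. The reason is not given in the sources used here, and a choice by expression is not excluded, so calls over the 8 libraries depend on it. Results are therefore given over all 10 libraries and over the 8 libraries that carry weight, 4 in each group. DMM kidney 1 lay inside the range of the PBS kidneys for 10 of 10 members, while PBS kidney 3 did not stand apart for them. DMM kidney 4 differed from the rest in another way. Relative to the mean of the 4 PBS kidneys that carry weight, its median log2 difference was -0.58 over the 4127 shortest genes (up to 2403 bp) and 0.52 over the 4126 longest (from 6292 bp), of 16505 tested. In the other 9 libraries these medians lay between -0.02 and 0.07 for the short genes and between -0.04 and 0.01 for the long ones. Erap1, of 7280 bp, is the 1 member among the longest genes, and Psmb10, Psme1, Psme2 and Tapbpl are the 4 among the shortest. The share of counts on the mitochondrial genome was 2.14%, 2.30%, 3.66%, 1.97% and 2.004% in PBS kidneys 1 to 5 and 2.30%, 3.79%, 4.03%, 5.62% and 4.39% in DMM kidneys 1 to 5. The part of these differences in the results below was not tested. Kidney tissue was evident in every library, with at least 219.6 CPM of the proximal tubule receptor Lrp2.

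Lower levels of 9 of the 10 members were found in DMM kidneys 2 to 5, from Tap1, which was 4.37-fold lower over the 8 libraries, to Tapbpl, which was 1.68-fold lower. Erap1 was the exception. The median log2 fold change of the members was -1.24 over the 8 libraries and -0.91 over all 10, against 0.02 over all tested genes in both. Over the 8 libraries edgeR called 8 of 10 members lower (adjusted p under 0.05 and fold change above 1.5), beside 3.56% of all 16550 tested genes, and none higher. Psme2 missed the threshold on p and Erap1 missed both. Over all 10 libraries edgeR called 0 of 10 members, and 0% of 16505 genes were called lower. With the same fold and an unadjusted p under 0.05 it counted 8 of 10 members, beside 4.11% of the tested genes. DESeq2 also called 0 members over the 10 libraries, with a smallest adjusted p of 0.0521 among them. DMM kidney 1 decided this: in the 9 libraries without it 8 of 10 members were called lower, beside 2.6% of 16760 genes. No member had every DMM kidney below every PBS kidney over all 10 libraries, where 1.16% of tested genes had, whereas over the 8 libraries, which leave out DMM kidney 1, 9 of 10 members did, beside 10.7%. In such bulk samples fewer cells of a type and less RNA per cell cannot be told apart.

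**Figure D1:**
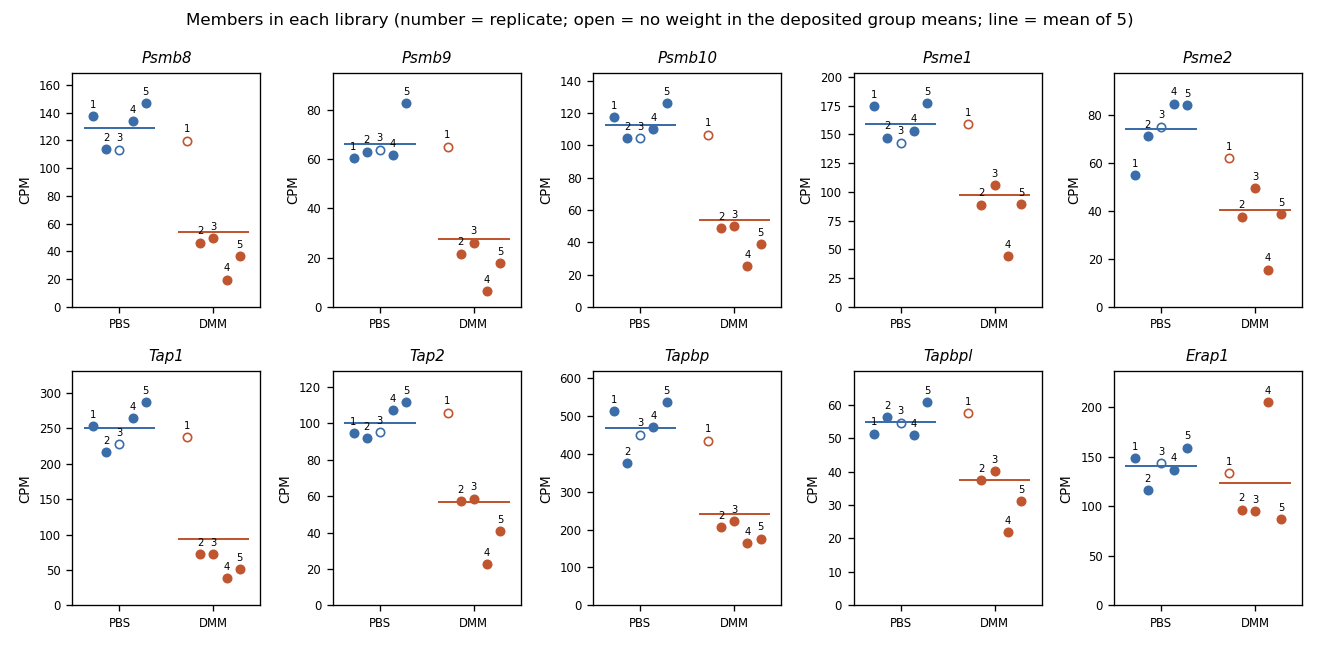
CPM of each member (vertical axis, from 0) in the 5 PBS and 5 DMM kidneys, with the replicate number above each point and the group mean of 5 as a line. Open points are PBS kidney 3 and DMM kidney 1, which have no weight in the deposited group means, and DMM kidney 1 lies among the PBS kidneys in all 10 panels while DMM kidneys 2, 3 and 5 lie below them.

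Psmb8, Psmb9 and Psmb10 encode the inducible catalytic subunits β5i, β1i and β2i, which change the bonds that the proteasome prefers to cut. Psmb8 (also LMP7, ENSMUSG00000024338) had 137, 114, 113, 134 and 147 CPM in PBS kidneys 1 to 5 and 119.7, 46.2, 49.5, 19.6 and 36.4 CPM in DMM kidneys 1 to 5. DMM kidneys 2 to 5 lay far below every PBS kidney, with DMM kidney 4 lowest, and DMM kidney 1 lay among the PBS kidneys. Its mean was 129 ± 14.9 CPM (SD, n = 5) in PBS and 54.3 ± 38.4 CPM (SD, n = 5) in DMM kidneys, and without the 2 libraries 133 ± 13.9 CPM (SD, n = 4) and 37.9 ± 13.4 CPM (SD, n = 4). Psmb8 fell over the 8 libraries (log2 fold change -1.81, edgeR standard error 0.26 and adjusted p = 0.00615), a difference of 3.50-fold. The values over all 10 did not pass (log2 fold change -1.25, edgeR standard error 0.38 and adjusted p = 0.378).

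Psmb9 (LMP2, ENSMUSG00000096727) had 60.4, 63.1, 63.9, 61.6 and 82.6 CPM in PBS kidneys 1 to 5 and 65.1, 21.6, 26, 6.46 and 17.7 CPM in DMM kidneys 1 to 5. The same kidneys were low, the PBS kidneys spanned a narrow range apart from the high PBS kidney 5, and the groups overlapped only through DMM kidney 1. It fell 3.73-fold over the 8 libraries (log2 fold change -1.90, edgeR standard error 0.36 and adjusted p = 0.0165) and did not pass over all 10 (log2 fold change -1.28, edgeR standard error 0.45 and adjusted p = 0.387). Psmb9 was no longer called over the 8 libraries when PBS kidney 5 or DMM kidney 5 was left out, with a largest adjusted p of 0.0623 (edgeR). Psmb10 (MECL-1, ENSMUSG00000031897) had 117, 105, 104, 109.9 and 126 CPM in PBS kidneys 1 to 5 and 107, 48.7, 49.9, 25 and 38.8 CPM in DMM kidneys 1 to 5. DMM kidneys 2 to 5 were again below all PBS kidneys and DMM kidney 1 was within their range. Its fall of 2.82-fold over the 8 libraries (log2 fold change -1.50, edgeR standard error 0.21 and adjusted p = 0.0051) was called without each further library as well, and over all 10 libraries it did not pass (log2 fold change -1.06, edgeR standard error 0.31 and adjusted p = 0.378).

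Each inducible subunit takes the place of a constitutive one during assembly, Psmb8 that of Psmb5, Psmb9 that of Psmb6 and Psmb10 that of Psmb7. None of the 3 constitutive genes passed the test. Psmb5 had 78.3, 83.6, 89.5, 81.4 and 84.6 CPM in PBS kidneys 1 to 5 and 84.7, 102, 101, 36.4 and 95.1 CPM in DMM kidneys 1 to 5, Psmb6 had 89.2 to 94.5 CPM in PBS and 59.4 to 98.2 CPM in DMM kidneys, and Psmb7 had 47.1 to 54.7 and 48.7 to 57.2 CPM. The low values of Psmb5 and Psmb6 belonged to DMM kidney 4, and both genes are short (899 and 1872 bp). The log2 fold changes of Psmb5, Psmb6 and Psmb7 were 0.03, -0.10 and 0.08 over the 8 libraries (adjusted p = 0.97, 0.771 and 0.684, edgeR) and 0.00, -0.07 and 0.05 over all 10.

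Ratios of an inducible to a constitutive subunit were taken within a library, each as counts per base of gene length. Such a ratio is free of the scaling between libraries. It is not free of the length pattern of DMM kidney 4, because the genes of each pair differ in length. Psmb8 has 2736 bp against 899 bp for Psmb5, Psmb9 3659 against 1872 bp for Psmb6, and Psmb10 1705 against 3421 bp for Psmb7. The part of this in the ratios was not tested. The Psmb8 to Psmb5 ratio was 0.577, 0.446, 0.416, 0.54 and 0.569 in PBS kidneys 1 to 5 and 0.464, 0.149, 0.162, 0.177 and 0.126 in DMM kidneys 1 to 5. The Psmb9 to Psmb6 ratio was 0.345, 0.342, 0.367, 0.352 and 0.465 in PBS kidneys 1 to 5 and 0.362, 0.122, 0.136, 0.0559 and 0.0973 in DMM kidneys 1 to 5. DMM kidneys 2 to 5 had lower values of both ratios than any PBS kidney, and DMM kidney 1 was again among the PBS kidneys. The Psmb10 to Psmb7 ratio was 4.79, 4.09, 3.83, 4.2 and 5.37 in PBS kidneys 1 to 5 and 4.09, 1.71, 1.93, 1.03 and 1.45 in DMM kidneys 1 to 5, above 1 in every library, with the same kidneys low. On the log2 scale the Psmb8 to Psmb5 ratio differed by -1.41 between DMM and PBS kidneys (2.66-fold lower, exact two-sided permutation test over 10 libraries, p = 0.0238). For Psmb9 to Psmb6 the difference was -1.55 (2.93-fold lower, exact permutation test, p = 0.0317), and for Psmb10 to Psmb7 it was -1.28 (2.43-fold lower, exact permutation test, p = 0.0159). Adjusted over the 3 ratios, p was 0.0317 for each (exact permutation tests). Over the 8 libraries the differences were -1.80, -1.94 and -1.62, with an exact permutation p of 0.0286 each, the smallest that 4 against 4 can give. In 4 of 5 DMM kidneys, DMM kidney 4 included, all 3 ratios were below every PBS value.

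**Figure D2:**
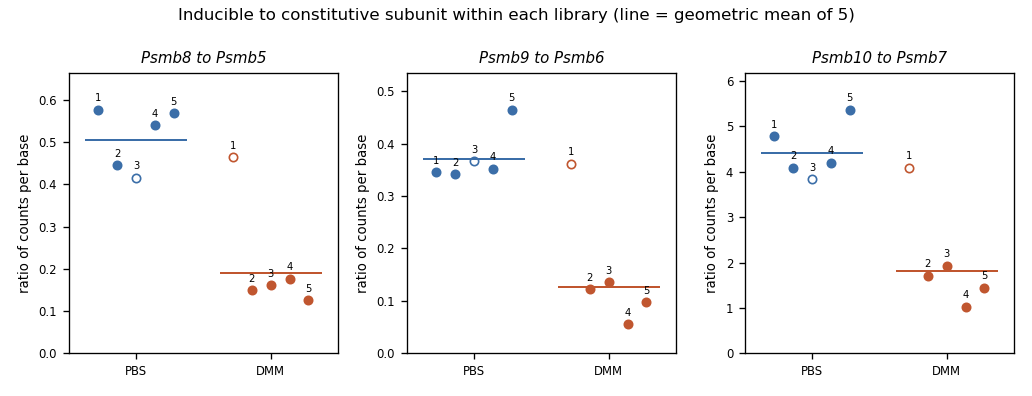
Ratio of each inducible subunit to its constitutive counterpart in counts per base (vertical axis, from 0) in the 5 PBS and 5 DMM kidneys, with replicate numbers and the geometric mean of 5 as a line, open points as PBS kidney 3 and DMM kidney 1. DMM kidneys 2 to 5 lie below every PBS kidney in all 3 panels, at 1.03 to 1.93 for Psmb10 to Psmb7 against 3.83 to 5.37 in PBS kidneys. The value of 1.03 is from DMM kidney 4, whose length pattern these ratios do not remove.

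Psme1 and Psme2 encode the α and β subunits of PA28, a ring that caps the proteasome core and speeds the release of short peptides. Psme1 (ENSMUSG00000022216) had 175, 147, 143, 153 and 177 CPM in PBS kidneys 1 to 5 and 159, 89, 106, 44.3 and 89.6 CPM in DMM kidneys 1 to 5. All PBS kidneys and DMM kidney 1 were above the other DMM kidneys, of which DMM kidney 4 was the lowest by a wide margin. It fell 1.98-fold over the 8 libraries (log2 fold change -0.99, edgeR standard error 0.24 and adjusted p = 0.0417), a call kept in 1 of 8 fits without a further library (largest adjusted p = 0.125, edgeR), and did not pass over all 10 (log2 fold change -0.70, edgeR standard error 0.26 and adjusted p = 0.394). Psme2 (ENSMUSG00000079197) had 54.9, 71.2, 75.2, 84.9 and 84.1 CPM in PBS kidneys 1 to 5 and 62, 37.6, 49.5, 15.5 and 38.6 CPM in DMM kidneys 1 to 5. PBS kidney 1 was low for this gene and came close to DMM kidney 3, although the groups of 4 still did not overlap. Psme2 was not called over the 8 libraries (log2 fold change -1.06, edgeR standard error 0.31 and adjusted p = 0.079) nor over all 10 (log2 fold change -0.86, edgeR standard error 0.29 and adjusted p = 0.385). Over the 8 it was called lower by DESeq2, and by edgeR without DMM kidney 4. Both settings were added after seeing the data. PBS kidney 1 stood out in that the Psme1 to Psme2 ratio of counts per base was 2.54 there, against 1.44 to 1.68 in the other PBS kidneys. In DMM kidneys 1 to 5 it was 2.04, 1.89, 1.71, 2.28 and 1.85, below the value of PBS kidney 1 and above those of the other 4 PBS kidneys. This difference was not tested.

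Tap1 and Tap2 encode the chains of the transporter that pumps peptides from the cytosol into the endoplasmic reticulum, and both are needed. Tap1 (ENSMUSG00000037321) had 253, 217, 228, 265 and 287 CPM in PBS kidneys 1 to 5 and 238, 72.4, 72.1, 38.3 and 51.4 CPM in DMM kidneys 1 to 5. The 4 low DMM kidneys lay between 38.3 and 72.4 CPM, against 217 CPM in the lowest PBS kidney, and DMM kidney 1 was at the level of the PBS kidneys. Its mean was 250.0 ± 28.3 CPM (SD, n = 5) in PBS and 94.4 ± 81.5 CPM (SD, n = 5) in DMM kidneys, and 255 ± 29.4 CPM (SD, n = 4) and 58.5 ± 16.7 CPM (SD, n = 4) without the 2 libraries. Tap1 fell 4.37-fold over the 8 libraries (log2 fold change -2.13, edgeR standard error 0.22 and adjusted p = 0.000889), ranked 122 of 16550 tested genes from the most negative log2 fold change, and did not pass over all 10 (log2 fold change -1.40, edgeR standard error 0.43 and adjusted p = 0.378). Tap2 (ENSMUSG00000024339) had 94.5, 91.7, 95.1, 107 and 112 CPM in PBS kidneys 1 to 5 and 106, 57.2, 58.6, 22.5 and 40.8 CPM in DMM kidneys 1 to 5. Here DMM kidneys 2 and 3 were less low, and DMM kidney 4 was far below them. It fell 2.26-fold over the 8 libraries (log2 fold change -1.18, edgeR standard error 0.27 and adjusted p = 0.034), kept as a call in 2 of 8 fits without a further library (largest adjusted p = 0.11, edgeR), and did not pass over all 10 (log2 fold change -0.81, edgeR standard error 0.32 and adjusted p = 0.408). The Tap1 to Tap2 ratio of counts per base was 1.85, 1.63, 1.66, 1.7 and 1.77 in PBS kidneys 1 to 5 and 1.55, 0.873, 0.849, 1.17 and 0.87 in DMM kidneys 1 to 5, so that Tap1 had the higher level per base in every PBS kidney and in DMM kidneys 1 and 4, and the lower one in DMM kidneys 2, 3 and 5. This ratio was not tested.

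Tapbp encodes tapasin, which bridges the transporter and the empty class I molecule and favours the binding of peptides of high affinity, and Tapbpl encodes TAPBPR, a related peptide editor that works apart from the transporter. Tapbp (ENSMUSG00000024308) had 514, 376, 451, 470.4 and 537 CPM in PBS kidneys 1 to 5 and 435, 207, 223, 164 and 176 CPM in DMM kidneys 1 to 5. DMM kidneys 2 to 5 lay between 164 and 223 CPM and the PBS kidneys and DMM kidney 1 at 376 CPM or above. It fell 2.46-fold over the 8 libraries (log2 fold change -1.30, edgeR standard error 0.16 and adjusted p = 0.00236) and over all 10 had the smallest p of the members (unadjusted p = 0.00287, adjusted p = 0.378, log2 fold change -0.96, edgeR). Tapbpl (ENSMUSG00000038213) had 51.3, 56.3, 54.6, 50.8 and 60.8 CPM in PBS kidneys 1 to 5 and 57.5, 37.4, 40.2, 21.8 and 31.1 CPM in DMM kidneys 1 to 5. The 8 libraries separated by group, with DMM kidney 3 at 40.2 CPM nearest to the lowest PBS kidney at 50.8 CPM. It fell 1.68-fold over the 8 libraries (log2 fold change -0.75, edgeR standard error 0.19 and adjusted p = 0.0455), called in 1 of 8 fits without a further library (largest adjusted p = 0.144, edgeR), and over all 10 its difference of 1.46-fold was under the fold threshold as well (log2 fold change -0.54, edgeR standard error 0.21 and adjusted p = 0.408).

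Erap1 encodes the aminopeptidase of the endoplasmic reticulum that trims peptides to the length the class I groove takes, and it differed from the other members. Erap1 (ENSMUSG00000021583) had 148, 116, 143, 137 and 159 CPM in PBS kidneys 1 to 5 and 133, 96.5, 95.2, 205 and 87 CPM in DMM kidneys 1 to 5. DMM kidneys 2, 3 and 5 were below every PBS kidney, whereas DMM kidney 4 had the highest value of all 10 libraries. Erap1 did not pass over the 8 libraries (log2 fold change -0.21, edgeR standard error 0.27 and adjusted p = 0.698) or over all 10 (log2 fold change -0.19, edgeR standard error 0.22 and adjusted p = 0.739). Over the 8 libraries this depended on DMM kidney 4. Without it, an alternative added after seeing the data, Erap1 in the remaining 7 had a log2 fold change of -0.59 (adjusted p = 0.00348, edgeR), and 10 of 10 members were called lower beside 7.61% of 16828 tested genes. Leaving DMM kidney 4 out of all 10 libraries did not bring a call of Erap1 (log2 fold change -0.45, adjusted p = 0.256, edgeR). Erap1 is the longest member, and the long genes of DMM kidney 4 were high as a whole. The part of this in its value was not tested. The gene Cast on the opposite strand, whose exons in the GENCODE M21 annotation share 834 bases with those of Erap1, is long as well (11470 bp). Cast was also highest in DMM kidney 4, with 211 CPM against 111 to 148 CPM in PBS kidneys.

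Compared per length, as CPM per kb of gene, the order of the levels in the 5 PBS kidneys was led by Tapbp at 142.5 ± 18.9 (SD, n = 5), followed by Psme1 at 72.0 ± 7.15, Psmb10 at 65.9 ± 5.39, Psmb8 at 47.2 ± 5.45, Tap1 at 45.7 ± 5.16 and Psme2 at 42.0 ± 6.91. Tap2 at 26.5 ± 2.34, Tapbpl at 23.3 ± 1.73, Erap1 at 19.3 ± 2.21 and Psmb9 at 18.1 ± 2.52 were lower. Psme1 and Psmb10, Psmb8 and Tap1, Tap1 and Psme2, and Erap1 and Psmb9 were neighbours in this order that differed by less than the larger of their SDs. In the 4 DMM kidneys with weight, Tapbp at 58.4 ± 8.23 CPM per kb (SD, n = 4) still came first and Psmb9 at 4.90 ± 2.29 last, while Tap1 at 10.7 ± 3.05 stood in place 9 of 10 instead of 5. From Psmb10 to Tap1 in that order, each neighbour differed from the next by less than the larger SD. With DMM kidney 1 included, Tap1 at 17.2 ± 14.9 CPM per kb (SD, n = 5) stood in place 6, between Tapbp first and Psmb9 last. There every neighbour differed from the next by less than the larger SD.

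The difference from the PBS mean varied by library and by gene. Averaged over the 10 members, the log2 difference from the mean of the 5 PBS kidneys was -0.05 in DMM kidney 1, -1.09 in DMM kidney 2, -0.96 in DMM kidney 3, -1.94 in DMM kidney 4 and -1.34 in DMM kidney 5, and the PBS kidneys lay between -0.13 and 0.20. DMM kidney 4 was the lowest library for 9 of 10 members and PBS kidney 5 the highest for 8. Within DMM kidney 4 the log2 differences ran from -3.33 for Psmb9 and -2.71 for Psmb8 to -1.32 for Tapbpl and 0.55 for Erap1. DMM kidney 2, without that kidney's length pattern, ran from -1.78 for Tap1 to -0.54 for Tapbpl and Erap1, and DMM kidney 5 from -2.27 for Tap1 to -0.69 for Erap1. Tap1 was the lowest member in DMM kidneys 2, 3 and 5, and Psmb9 in DMM kidney 4.

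Across the 10 libraries, which share the split between DMM kidneys 2 to 5 and the rest, the log2 CPM of 9 members followed the mean of all 10, itself included, with Pearson's r from 0.932 for Psme2 to 0.998 for Psmb10, and Erap1 had r = 0.137. The 5 tested genes outside the members whose pattern was most like that mean were Rnf114 (r = 0.996), a ubiquitin ligase, Ifi35 (r = 0.994), an interferon-induced protein, Parp10 (r = 0.994), a mono-ADP-ribosyltransferase, Dhx58 (r = 0.993), which encodes the RNA sensor LGP2, and Irf1 (r = 0.993), a transcription factor induced by interferon. Dhx58 had 88.4, 61.9, 65.3, 94.7 and 89.6 CPM in PBS kidneys 1 to 5 and 78.6, 15.3, 13.4, 3.93 and 9.73 CPM in DMM kidneys 1 to 5. Irf1 had 131, 134, 142, 130.0 and 161 CPM in PBS kidneys 1 to 5 and 124, 64.4, 65.3, 28.8 and 53.1 CPM in DMM kidneys 1 to 5. DMM kidney 4 was lowest for both, and DMM kidney 1 lay inside the PBS range for Dhx58 but just below it for Irf1.

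In the rest of the proteasome no listed gene passed. Of the other 11 genes of the 20S core 0 were called lower and 0 higher by edgeR over the 8 libraries or over all 10, and 0 had an unadjusted p under 0.05 together with that fold, with a median log2 fold change of -0.12 over the 8. There 11 of 11 were below 0, beside 7878 of 16550 tested genes. The summed level of these 11 genes was lowest in DMM kidney 4, at 816 CPM. It was 960 to 1006 CPM in the other DMM kidneys and 995 to 1047 CPM in PBS kidneys. Psma5 and Psmb3 had the smallest p of that list over all 10 libraries, with log2 fold changes of -0.16 and -0.21 (adjusted p = 0.527 and 0.553, edgeR). Of the 18 genes of the 19S particle, which recognises ubiquitin and unfolds substrates, 0 passed either rule, with a median of 0.06. Psmd1 and Psmc4 led that list with log2 fold changes of 0.45 and -0.16 (adjusted p = 0.538 and 0.567, edgeR). Psmd1, a long gene (7265 bp), had 321 CPM in DMM kidney 4 against at most 127 CPM in the other 9 libraries. The 8 other activators, inhibitor and assembly chaperones also had 0 genes past either rule, with a median of 0.04. Psmg4 (log2 fold change -0.37, adjusted p = 0.516, edgeR) and Psme4 (log2 fold change 0.45, adjusted p = 0.526, edgeR) had their smallest p. Psme4 is also a long gene (8382 bp) and was highest in DMM kidney 4, at 397 CPM.

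The molecules that the members load were called lower as well, beside 3.56% of all tested genes over the 8 libraries. Of 6 genes of the class I molecule and its general chaperones, 3 were called lower over the 8 libraries, with a median log2 fold change of -0.72, and 0 over all 10 (3 at an unadjusted p, edgeR). B2m, the light chain of every class I molecule, had 1541, 1018, 1465, 1303 and 1729 CPM in PBS kidneys 1 to 5 and 1171, 624, 651, 475 and 577 CPM in DMM kidneys 1 to 5, with log2 fold changes of -1.27 over the 8 libraries (adjusted p = 0.00683, edgeR) and -1.01 over all 10 (adjusted p = 0.378, edgeR). The heavy chains H2-K1 and H2-D1 had log2 fold changes of -1.17 and -1.19 over the 8 libraries (adjusted p = 0.0447 and 0.0449, edgeR), but their sequences are close enough for reads to be shared, so the values of each are uncertain. Of 7 cytosolic and other peptidases that trim or destroy peptides, 0 were called in either direction by edgeR over the 8 libraries or over all 10, also at an unadjusted p. Over the 8 libraries their median log2 fold change was 0.35, with 0 of 7 below 0, beside 7878 of 16550 tested genes. Their summed level was 1553 CPM in DMM kidney 4 and 833 to 969 CPM in the other libraries. The 7 genes are 3098 to 14144 bp long, and long genes were high as a whole in DMM kidney 4. The part of this in their median was not tested. Nrd1 and Npepps had the smallest p, with log2 fold changes of 0.47 and 0.31 over all 10 (adjusted p = 0.513 and 0.524, edgeR), and both were highest in DMM kidney 4.

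Several regulators of these genes were called lower over the 8 libraries, beside 3.56% of all tested genes. Of 16 tested regulators and interferon signaling genes, 6 were called lower and 0 higher over the 8 libraries, with a median log2 fold change of -0.44, and 0 were called over all 10 by edgeR (5 lower and 0 higher at an unadjusted p). Nlrc5, the transactivator of class I genes, had 86.7, 85.4, 92.1, 101 and 112 CPM in PBS kidneys 1 to 5 and 96.4, 30.4, 27.3, 25.9 and 21.9 CPM in DMM kidneys 1 to 5, with log2 fold changes of -1.87 over the 8 libraries (adjusted p = 0.000188, edgeR) and -1.24 over all 10 (adjusted p = 0.378, edgeR). Irf1 had log2 fold changes of -1.39 (adjusted p = 0.0115, edgeR) and -1.06 (adjusted p = 0.378, edgeR). Irf9 and Stat2 were called lower over the 8 libraries with log2 fold changes of -1.33 and -2.39 (adjusted p = 0.00136 and 0.000107, edgeR). Ifng, which encodes interferon gamma, was the 1 gene of the list that was not tested, with at most 0.412 CPM in any library and 0 in DMM kidneys 4 and 5.

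Marker genes of several cell types moved with the members, and their part in the result was not tested. Of 6 general leukocyte markers 4 were called lower over the 8 libraries (Coro1a, Laptm5, Cd52 and Rac2), and 0 over all 10 (4 at an unadjusted p, with Ptprc in place of Laptm5, edgeR). Their summed level was 756, 685, 638, 734 and 821 CPM in PBS kidneys 1 to 5 and 665, 475, 345, 463 and 350.0 CPM in DMM kidneys 1 to 5, with Laptm5 the most abundant. That sum was 749 ± 56.5 CPM (SD, n = 4) in PBS and 408 ± 70.4 CPM (SD, n = 4) in DMM kidneys of the 8 libraries, while the sum of the members was 1577 ± 171 and 664 ± 95.1 CPM. Of 8 macrophage and monocyte markers 3 were called lower (Cd68, C1qb and Ly6c2; 0 over all 10, 6 at an unadjusted p, edgeR), with summed levels of 1571, 1395, 1237, 1451 and 1672 CPM in PBS kidneys 1 to 5 and 1324, 932, 761, 621 and 782 CPM in DMM kidneys 1 to 5 and C1qb the most abundant. Of 7 T cell markers 1 was called lower, Cd4 (0 over all 10, and at an unadjusted p 5, Cd3e, Cd3d, Cd3g, Cd4 and Lck, edgeR), and their sum, led by Cd4, was 54.3, 56, 53, 46.9 and 79.2 CPM in PBS kidneys 1 to 5 and 50.3, 42.6, 17.7, 21.6 and 22.8 CPM in DMM kidneys 1 to 5. DMM kidney 4, the lowest library for 9 members, was also the lowest for the macrophage and monocyte sum but not for the leukocyte or T cell sums, although Coro1a, Cd52, Rac2, Cd3d, Cd8a and Lck were lowest there.

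Of 5 NK cell markers 0 were called over either set of libraries (1 lower over all 10 at an unadjusted p, Gzma, edgeR), and their sum, led by Nkg7, was 12.2, 9.89, 13.2, 9.79 and 15.8 CPM in PBS kidneys 1 to 5 and 10.3, 8.76, 4.7, 7.13 and 6.99 CPM in DMM kidneys 1 to 5. The sum of 5 B and plasma cell markers, led by Jchain, was 10, 11, 12, 25.9 and 11.2 CPM in PBS kidneys 1 to 5 and 13.9, 11, 7.65, 4.65 and 6.99 CPM in DMM kidneys 1 to 5, lowest in DMM kidney 4, with 0 called (0 at an unadjusted p over all 10, edgeR) and with Cd79a at 0 in at least 1 library. Dendritic cell markers, 6 in number and led by Zbtb46, summed to 67.1, 65.9, 64.6, 59.7 and 68.1 CPM in PBS kidneys 1 to 5 and 74.3, 58.7, 38.5, 64.9 and 43.6 CPM in DMM kidneys 1 to 5, also with 0 called (0 at an unadjusted p over all 10, edgeR). Neutrophil markers, 5 with 4 tested and Ly6g at 0 in at least 1 library, were led by Csf3r and summed to 24.9, 24.4, 21.3, 108 and 33.6 CPM in PBS kidneys 1 to 5 and 30.2, 18.2, 27.8, 97.1 and 25.7 CPM in DMM kidneys 1 to 5, with 0 called (0 at an unadjusted p, edgeR). In the opposite direction 2 of 8 proximal tubule markers were called higher over the 8 libraries, Lrp2 and Cubn (0 over all 10, 2 at an unadjusted p, edgeR), with Lrp2 the most abundant and sums of 2234, 2270.1, 5386, 987 and 1726 CPM in PBS kidneys 1 to 5 and 1598, 4349.7, 5311, 4422 and 6385 CPM in DMM kidneys 1 to 5. Lrp2 and Cubn are long genes (16701 and 14935 bp) and were highest in DMM kidney 4, where Lrp2 had 2504 CPM of the sum. The shorter Slc34a1, Slc5a2, Slc27a2, Miox and Aqp1 lay within the PBS range there. Slc22a6, also shorter (4026 bp), had 99.2 CPM in that kidney. That was above PBS kidneys 1, 2, 4 and 5 (18.6 to 81.3 CPM) and below PBS kidney 3 (260.53 CPM). PBS kidney 3, high for these tubule markers, was at the PBS level for the members. Over the 8 libraries 452 of all 16550 tested genes were called higher. Of 5 markers of other tubule segments 3 were called higher, Slc12a1, Slc12a3 and Calb1 (0 over all 10, also at an unadjusted p, edgeR), led by Umod, with sums of 3069, 2551, 4252, 1916 and 1657 CPM in PBS kidneys 1 to 5 and 2638, 4111, 4759, 1870.1 and 5122 CPM in DMM kidneys 1 to 5. Of 4 fibroblast markers 1 was called lower, Col1a2 (0 over all 10, also at an unadjusted p, edgeR), with sums, led by Col1a1, of 4095, 5824, 2993, 7988 and 5558 CPM in PBS kidneys 1 to 5 and 6952, 3185, 2257, 4049 and 2495 CPM in DMM kidneys 1 to 5. The 4 endothelial markers, led by Pecam1, had 0 called (0 at an unadjusted p, edgeR) and sums of 402, 525, 481, 631 and 460.2 CPM in PBS kidneys 1 to 5 and 539, 445, 466, 607 and 495 CPM in DMM kidneys 1 to 5.

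The members are not scattered evenly over the genome (mm10). Psmb9 (chr17:34181988-34187764, minus strand), Tap1 (chr17:34187553-34197225, plus), Psmb8 (chr17:34197721-34201454, plus) and Tap2 (chr17:34203527-34216321, plus) lie side by side in the class II region of the major histocompatibility complex, within 34.3 kb, and Tapbp (chr17:33915899-33929288, plus) lies on the same chromosome. Psme1 (chr14:55578123-55581529, plus) and Psme2 (chr14:55587441-55591113, minus) are 5.91 kb apart on chromosome 14. Psmb10 (chr8:105935735-105938444, minus), Tapbpl (chr6:125223933-125231860, minus) and Erap1 (chr13:74639568-74693201, plus) stand alone. Over the 8 libraries the log2 fold changes of these neighbours were -1.90 for Psmb9, -2.13 for Tap1, -1.81 for Psmb8 and -1.18 for Tap2. Whether they differ was not tested. Some of these genes share bases, and whether the counting used strand is not given in the sources used here, so reads of opposite strands cannot be told apart. Shared exon bases are those of the GENCODE M21 annotation, which need not be the one counted. Psmb8 has 3381 exon bases there, against a deposited length of 2736 bp. Exons of Psmb9 and Tap1 share 212 bases on opposite strands. Tapbp shares 149 exon bases with Zbtb22 on its own strand, which was lowest in DMM kidney 4 and had 31.7 to 46.6 CPM in the other libraries. On the opposite strand lie Emc9 for Psme1 (14 shared exon bases) and the low genes Gm20496 for Psmb8 and Tap2 (498 and 165 bases, 29 counts in all libraries together), Gm15821 for Tap2 (533 bases, 152 counts) and Gm19412 for Tapbp (904 bases, 3 counts).

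**Figure D3:**
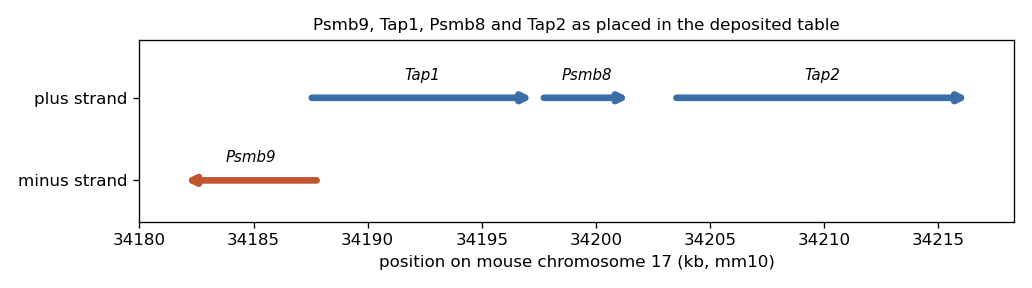
Map of the stretch of chromosome 17 (horizontal axis, position in kb, mm10) that holds Psmb9, Tap1, Psmb8 and Tap2, each drawn to scale from start to end with an arrow in the direction of transcription and the strand on the vertical axis. The 4 genes lie within 34.3 kb, and Psmb9 and Tap1 start next to each other on opposite strands.

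Because 9 of the members moved together, their promoters were searched for short motifs of factors that interferon or inflammation activates. RefSeq promoters (GRCm38.p6, 250 bases before to 50 after the start) were found for 8 of 10 members, all but Tap2 and Tapbpl. The motifs, on both strands, were an interferon-stimulated response element (GAAANNGAAA), a gamma-activated site (TTCNNNGAA, which reads the same on both strands) and a kB motif (GGGNNNNNCC). The response element was in 2 of 8 members, Psme1 and Erap1, and in 3.44% of all 32851 promoters. The gamma-activated site was in 1 of 8, Psmb8, and in 8.3% of all promoters. The kB motif was in 4 of 8, Psmb9, Psme1, Psme2 and Tap1, but also in 50.8% of all promoters. No match of a motif overlapped a match of another in these members. The starts of Psmb9 and Tap1 are 225 bases apart and their windows share 275 bases, so the 5 kB matches of Psmb9 and the 5 of Tap1 are the same. Of the constitutive counterparts 2 had a promoter, with the response element or the gamma-activated site in 0 of 2 and the kB motif in 1. A match describes the sequence and shows neither a bound site nor a cause, and its absence says only that these letters are not in the window.

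The 3 stretches with a response element or gamma-activated site are shown because Psme1 and Psmb8 are members that were called lower and Erap1, which was not, holds the same element. Each is given 5′ to 3′ on the plus strand, which is the strand of these genes, with the match in capitals and 10 bases to each side. Exons of GENCODE M21 overlap all 3 stretches, which lie in or next to the annotated 5′ ends of their genes. The match of Psme1 is at positions 9 to 18 after the RefSeq start (chr14:55578493-55578522), that of Erap1 runs from 4 bases before the start to 5 after it (chr13:74639839-74639868), and that of Psmb8 lies 97 to 89 bases before the start (chr17:34198088-34198116). In Psme1 and Erap1 the element is read on the other strand.
Psme1: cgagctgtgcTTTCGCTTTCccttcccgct
Erap1: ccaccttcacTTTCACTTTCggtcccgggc
Psmb8: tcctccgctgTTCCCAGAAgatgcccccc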

How the data were processed

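The authors extracted RNA from UUO kidneys of 10 mice, sequenced it on a NovaSeq X Plus, and aligned the reads to mm10. HISAT2 2.0.5 is named in the submitters' processing notes. The counting tool, the annotation and the use of strand are not given in the sources used here. The authors deposited raw read counts per gene and library, and these counts were the input of every fit. FPKM values and the gene length in bp were deposited with them. Of these the lengths were used and the FPKM was not. The deposited table also holds the authors' own comparison, with group means as a signal of scaled counts, a log2 fold change and a p-value with its adjusted value. The group means served to find the libraries with a weight of 0, and the other columns of that comparison were not used.

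Counts were filtered with filterByExpr, scaled by TMM and tested with edgeR 4.0.16 (quasi-likelihood F test, group as the single term) in R 4.3.3, with Benjamini-Hochberg adjustment over all tested genes. The edgeR standard error given here was derived from that test, as the absolute log2 fold change divided by the square root of F. Called genes had a fold change above 1.5 with an adjusted p under 0.05. The fit was tested on simulated data. DESeq2 1.42.0 was the alternative tool. Subunit ratios, with 0.5 added to each count, were compared by an exact two-sided permutation test. Other settings were size factors, the filter on low counts, each library left out, and the 8 libraries. Leaving out further libraries from the 8 was added after seeing the data. Named genes were all members and their 3 constitutive counterparts, in each other list apart from the cell type markers the 2 tested genes with the smallest p over all 10 libraries, in any list the genes behind a count of 5 or fewer, and the 5 genes most like the members' mean in log2 CPM (prior count 2). The members and lists were chosen with earlier results of these data known. The table names nardilysin Nrd1. The values of 2 listed genes are not reported here. Motifs were searched with Python 3.11.15 in RefSeq promoters. The labels number the mice 1 to 5 in both groups, with no stated pairing, and each library is described as an independent replicate.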

Additional observations from a re-analysis of the deposited data

Results flagged for a closer look

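In 8 of 32 groups of 5 libraries, a single library lay far from the other 4 (Dixon's test of the gap to the nearest value against the whole range). Chance flags about 1 in 20 groups, and the members share their libraries, so these are not separate events. Psmb9 was high in PBS kidney 5, at 82.6 CPM, and the Psmb9 to Psmb6 ratio there was 0.465. DMM kidney 1 was high for Tap1 (238 CPM) and Tapbp (435 CPM), for the Psmb8 to Psmb5 ratio (0.464) and for the Psmb9 to Psmb6 ratio (0.362). DMM kidney 4 was low for the constitutive subunits Psmb5 (36.4 CPM) and Psmb6 (59.4 CPM), which are not members, and Erap1 in that kidney, though its highest value, was not far enough from the others.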

How the results depend on the processing

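The count of members and genes called depends on DMM kidney 1. Over all 10 libraries edgeR called 0 genes in either direction, against 678 lower and 315 higher with a fold above 1.5 and an unadjusted p under 0.05 (8 members lower). DESeq2 called 36 lower and 14 higher, with 0 members. Leaving out each library in turn gave between 0 and 436 genes called lower, between 0 and 50 called higher and between 0 and 8 members called lower, all from the fit without DMM kidney 1. The 8 libraries gave 590 lower, 452 higher and 8 members. On those 8, settings added after seeing the data gave 911 genes lower and 9 members with DESeq2, and 700 genes and 6 members with library size alone. Leaving out each further library gave 276 (PBS kidney 5) to 1281 (DMM kidney 4) genes and 4 (PBS kidney 5 or DMM kidney 5) to 10 (DMM kidney 4) members. Psmb8, Psmb10, Tap1 and Tapbp had an adjusted p under 0.05 in 8 of 8 of these fits, Psmb9 in 6, Tap2 in 2, and Psme1, Psme2, Tapbpl and Erap1 in 1. The cause was not tested.

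The median log2 fold change of the members stayed below 0 in every setting run, from -1.36 over the 8 libraries without DMM kidney 3 to -0.75 over all 10 without DMM kidney 4. Library size alone moved the median of all tested genes from 0.02 to -0.06 over the 10 libraries and to -0.09 over the 8. Replicate numbers are shared between the groups, but same-numbered libraries did not deviate together for every number (correlations -0.06, 0.08, 0.34, 0.12 and -0.22). With the replicate block edgeR called 0 genes and 0 members over all 10 libraries, with a median of -1.01 for the members. Sign flips within numbers, the replicate block of the ratios, left the log2 differences at -1.41, -1.55 and -1.28 with an exact permutation p of 0.0625, 0.125 and 0.0625, where 0.0625 is the smallest that 5 pairs can give. In the fits without a single library the ratios differed by -1.73 to -1.26 (Psmb8 to Psmb5), -1.93 to -1.26 (Psmb9 to Psmb6) and -1.57 to -1.07 (Psmb10 to Psmb7), with an exact permutation p from 0.00794 to 0.0397. The groups hold 4 or 5 kidneys, of which PBS kidney 3 and DMM kidneys 1 and 4 stand apart.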
